A study of Mus musculus with 7 samples.

Results

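The genes described here encode subunits of the MLL and menin complexes, read in RNA-seq libraries of lin- bone marrow from mice with and without *HRP-2*. The members were taken by name: *Kmt2a* (MLL), *Kmt2b*, *Kmt2d*, *Men1*, *Wdr5*, *Ash2l*, *Rbbp5*, *Dpy30*, *Hcfc1* and *Kdm6a*, 10 of the 25033 gene symbols in the count files. The wild type group held 3 *Hrp2*+/+ mice and the knockout group 4 *Hrp2*-/- mice, labelled WT and KO, with 1 library per mouse. The knockout mice carry the systemic tm1b allele of *Hdgfrp2* (now *Hdgfl2*) on C57BL/6N, so that the gene is lost in every tissue and not in blood cells alone. The cells came from femur and tibia of mice aged 6 to 8 weeks. The lin- fraction is what remains after cells with markers of mature lineages are removed, and is a mixture of cells. Markers of progenitors and of mature cells such as neutrophils were both read in it.

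MLL, the product of *Kmt2a*, is a methyltransferase of lysine 4 on histone H3 (H3K4), a mark of active promoters and enhancers, and maintains *Hox* gene expression in blood progenitors. Menin, the product of *Men1*, binds the N terminus of MLL and of MLL2 (*Kmt2b*) and joins them to LEDGF/p75, the paralog of HRP-2 with the same integrase binding domain (IBD). All methyltransferases of the family work on a common core of WDR5, ASH2L, RBBP5 and DPY30, to which further subunits such as HCF-1 (*Hcfc1*) or the H3K27 demethylase UTX (*Kdm6a*) are added in particular complexes.

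The promoters of *Kmt2a* and *Men1* are shown because these encode MLL and its adaptor, which together form the unit bound by LEDGF/p75, and because MLL itself binds unmethylated CpG dinucleotides through its CXXC domain. Each stretch holds 250 bases before and 50 bases after the RefSeq start on GRCm38.p6, written 5′ to 3′ on the gene's strand, with CpG dinucleotides in capitals. *Kmt2a* lies on the minus strand, and its stretch is chr9:44881240-44881539. *Men1* lies on the plus strand, and its stretch is chr19:6334729-6335028.
Kmt2a: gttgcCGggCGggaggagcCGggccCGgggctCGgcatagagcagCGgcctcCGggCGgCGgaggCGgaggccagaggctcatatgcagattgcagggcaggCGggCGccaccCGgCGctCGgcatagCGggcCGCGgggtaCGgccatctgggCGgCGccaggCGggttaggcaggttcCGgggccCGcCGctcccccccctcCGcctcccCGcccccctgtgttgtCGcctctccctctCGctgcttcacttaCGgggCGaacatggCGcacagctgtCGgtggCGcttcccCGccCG
Men1: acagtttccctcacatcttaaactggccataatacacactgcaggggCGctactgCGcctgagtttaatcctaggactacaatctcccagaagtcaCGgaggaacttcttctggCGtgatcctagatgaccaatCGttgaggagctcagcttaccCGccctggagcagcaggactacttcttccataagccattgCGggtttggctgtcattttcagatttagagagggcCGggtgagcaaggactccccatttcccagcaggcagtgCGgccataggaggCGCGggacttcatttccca
The last 35 bases of the *Kmt2a* stretch are coding sequence in GENCODE M21, the start of the N terminus to which menin binds. The *Kmt2a* stretch held 36 CpG, a number reached by 6.23% of the 32851 promoters of the same length in the table. The *Men1* stretch held 11, a number reached by 41.4% of them, and the other 2 entries of *Men1*, with starts slightly further into the gene, held 16 each. The table had entries for 8 of the 10 members. At the entry nearest to each gene's annotated 5′ end the median was 21 CpG, against 7 over all promoters. *Kmt2d* had 27, *Wdr5* 22, *Hcfc1* and *Kdm6a* 21 each and *Rbbp5* 16. *Dpy30* stood apart with 1 CpG at its outermost start, while its other entries, further into the gene, held 30, 34 and 39. The CpG content is a description of these stretches and was not set against expression.

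The libraries were primed on the poly(A) tail and gave 1 fragment per transcript near the 3′ end, so that CPM (read counts scaled to the library total and the TMM factor, a correction for composition) were compared between genes as they are, without division by length. The wild type libraries held 3525665 to 4490287 reads on genes and the knockout libraries 4355974 to 5605158, and 3 reads corresponded to between 0.561 and 0.840 CPM. The ribosomal RNA precursor *Rn45s* took from 4.94% to 20.6% of the reads. *Hdgfl2*, the targeted gene, had 228, 156 and 168 reads in the wild type mice and 13, 3, 8 and 2 in the knockout mice. Of 16 progenitor markers 14 passed the filter on low counts, led by *Mpo*, *Prtn3* and *Myb*, with a summed level of 8393 to 10613 CPM in wild type and 7614 to 10149 CPM in knockout mice. KO replicate 3 held 3 reads of the X inactivation transcript *Xist*, against 848 to 1457 in the other 6 mice, together with reads of Y-linked genes, and the labels give no sex.

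The comparison asked whether transcripts of the MLL machinery stood at another level in lin- cells that lack HRP-2. No difference was detected for any of the 10 genes. All of them passed the filter on low counts, and in the quasi-likelihood test of edgeR 0 of 10 reached an adjusted p below 0.25, the threshold used throughout, where 0.0178% of the 11265 genes tested did. At an unadjusted p-value under 0.05 the count was also 0 of 10, against 3.63% of all genes, and DESeq2 and limma-voom each called 0 of 10, where they called 21 and 3 of the 11265 genes. The CPM of the genotypes overlapped for every member, while they did not overlap for 5.16% of all genes, with every knockout mouse above the wild type for 2.37% and below it for 2.79%. The log2 fold change, knockout minus wild type, ran from -0.065 for *Kmt2a* to 0.22 for *Kmt2b*, 8 above and 2 below 0. The median was 0.046, against -0.0014 over all genes tested, and it moved with single mice, from 0.026 without KO replicate 2 to 0.094 without KO replicate 4, 0.098 without KO replicate 3 and 0.13 without WT replicate 3. In size the changes had a median of 0.063 on the log2 scale, against 0.15 over all genes, which include genes of lower counts. A p-value that misses the threshold does not show equal levels, so the 95% intervals carry the result. The lowest bound was 0.752-fold, for *Kdm6a*, and the highest 1.53-fold, for *Kmt2b*, so a doubling or a halving lay outside the interval of each member. In bulk RNA, fewer cells of a type and less RNA per cell cannot be told apart.

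**Figure D1:**
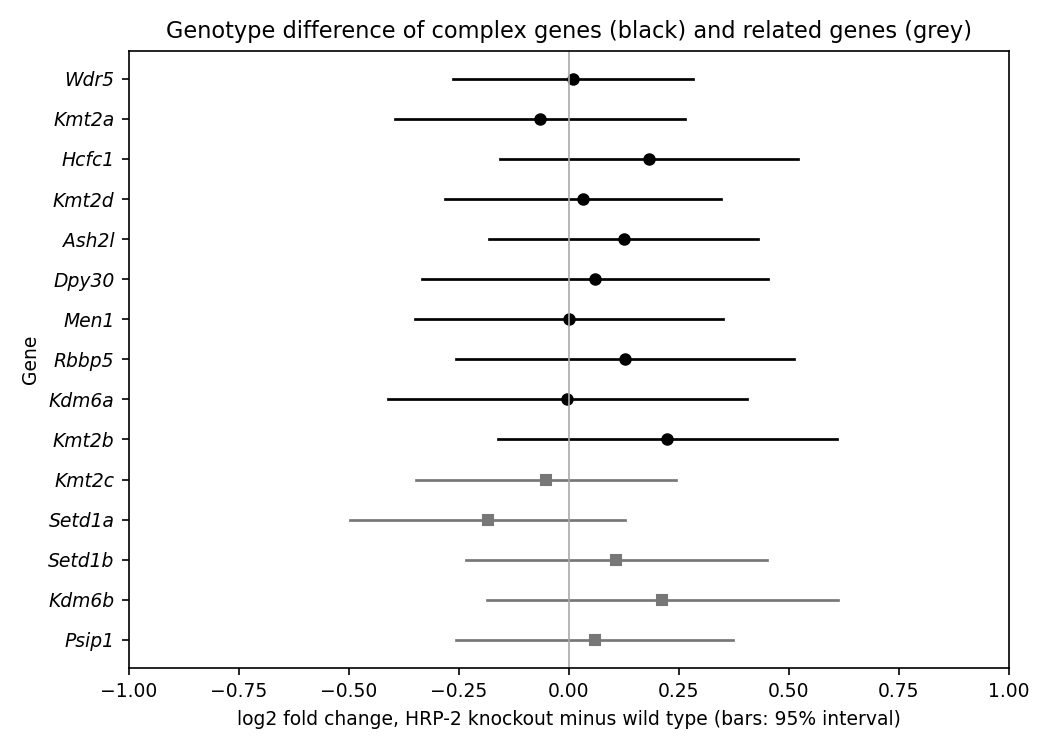
Log2 fold change between knockout and wild type mice (horizontal axis, points) with its 95% interval (bars) from edgeR's quasi-likelihood fit to 3 wild type and 4 knockout mice, for the 10 complex genes in black and 5 related genes in grey. Every interval includes 0, and for the complex genes the points lie between -0.065 and 0.22.

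The complex genes were all well expressed in lin- cells. In wild type mice each lay above at least 56.0% of the genes tested, and *Wdr5* above 92.4% of them. *Wdr5*, the WD40 protein that docks the core onto the methyltransferase, had the highest level of the 10 genes in each of the 7 mice, with a mean of 189 ± 13.2 CPM (SD, n = 7). *Kmt2a* followed with 129 ± 19.7 CPM (SD, n = 7), from 105.4 to 166 CPM. The next places were close together, and neighbours changed order from mouse to mouse. *Kmt2a* was above *Hcfc1* in 4 of 7 mice, *Hcfc1* above *Kmt2d* in 5, and *Kmt2d* above *Ash2l* in 4. *Dpy30* was above *Men1* in 7 of 7 mice, although by a ratio that ran from 1.01 to 1.85. *Rbbp5* was above *Kdm6a* in 6 of 7 mice. *Kdm6a* and *Kmt2b* closed the order, with 42.0 ± 6.74 and 38.4 ± 5.19 CPM (SD, n = 7 each), and *Kdm6a* was the higher in 5 of 7 mice. The reads behind a single value ranged from 112 to 1088.

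**Figure D2:**
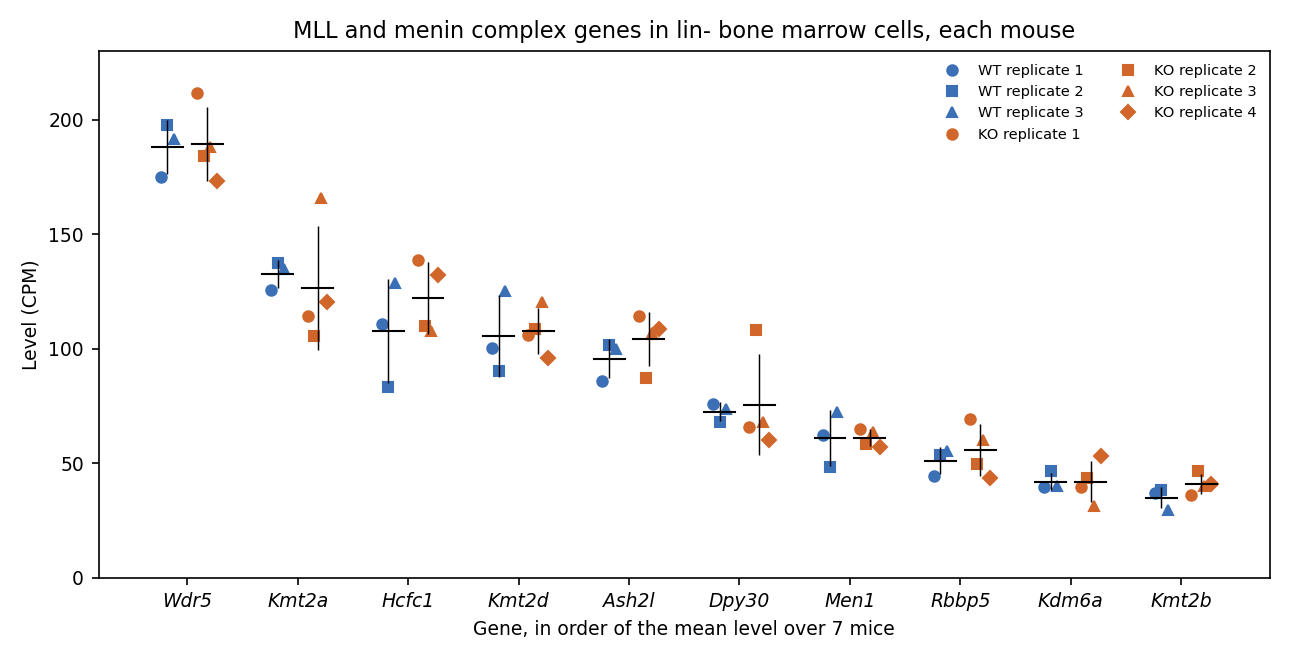
CPM (vertical axis) of each complex gene in each mouse, wild type in blue and knockout in orange with a symbol per replicate, with the mean as a horizontal bar and ± 1 SD as a vertical line. The genes are ordered by their mean over 7 mice, from *Wdr5* at 189 CPM to *Kmt2b* at 38.4 CPM, and the genotypes overlap for every gene.

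*Kmt2a*, on chr9:44803355-44881296, encodes MLL, the protein whose rearrangement defines *MLL*-r leukemia. Its level was 125, 137 and 135 CPM in wild type replicates 1 to 3 and 114, 105.4, 166 and 120.3 CPM in knockout replicates 1 to 4. The knockout mice lay on both sides of the narrow wild type range, 3 below it and KO replicate 3 above it. On the log2 scale the fold change was -0.065 (standard error, SE, of 0.16, 95% interval -0.39 to 0.26, adjusted p = 0.999 by edgeR's quasi-likelihood test). Without KO replicate 3 it was -0.22, with an unadjusted p of 0.128 from the same test. In that mouse 12 neutrophil markers summed to 25345 CPM, where the other 6 mice had 8037 to 16011 CPM, and its part in the level of *Kmt2a* was not tested.

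*Kmt2b*, on chr7:30568858-30588726, encodes MLL2, the other menin-binding methyltransferase. It stood at 36.9, 38.4 and 29.8 CPM in the wild type and at 36.0, 46.8, 40.0 and 40.9 CPM in the knockout mice. KO replicate 1 lay inside the wild type range and the other 3 knockout mice above it. With all mice its log2 fold change of 0.22 was the highest of the 10 (SE 0.18, 95% interval -0.16 to 0.61, adjusted p = 0.999 by edgeR's quasi-likelihood test). Leaving out WT replicate 3 gave 0.12, with *Hcfc1* at 0.33, and leaving out KO replicate 2 gave 0.15, with *Hcfc1* at 0.23.

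*Kmt2d*, on chr15:98831669-98871204, encodes MLL4, a methyltransferase of enhancers that does not bind menin. Its level was 100.5, 90.4 and 125 CPM in the wild type and 106, 108, 121 and 95.9 CPM in the knockout mice. All 4 knockout values fell within the range of the wild type mice. Its log2 fold change was 0.033, with a 95% interval from -0.28 to 0.35, and it was -0.064 without WT replicate 2, -0.026 without KO replicate 3 and 0.17 without WT replicate 3. The 3 methyltransferases together summed to 263 to 289.6 CPM in wild type and 256 to 326 CPM in knockout mice.

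*Men1*, on chr19:6334979-6340891, encodes menin, the adaptor between MLL and LEDGF/p75. Its level was 62.5, 48.2 and 72.5 CPM in the wild type and 64.9, 58.6, 63.5 and 57.3 CPM in the knockout mice. The knockout values lay within the wild type range, which was set by WT replicate 2 at the low and WT replicate 3 at the high end. The means were 61.1 ± 12.3 (SD, n = 3) and 61.1 ± 3.70 CPM (SD, n = 4), and the 95% interval of the fold change ran from 0.784 to 1.28. Leaving out WT replicate 2 gave a log2 fold change of -0.14, and leaving out WT replicate 3 gave 0.14.

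No difference was detected for the core subunits either. *Wdr5*, on chr2:27515157-27536535, stood at 175, 197 and 192 CPM in the wild type and at 211, 184, 188 and 173 CPM in the knockout mice, a log2 fold change of 0.0096 (SE 0.13, 95% interval -0.26 to 0.28). This was the narrowest interval of the 10. *Ash2l*, on chr8:25815996-25847694, which with RBBP5 activates the catalytic domain, stood at 85.8, 102 and 99.6 CPM in the wild type and at 114, 87.3, 107 and 108 CPM in the knockout mice. Of the knockout mice 3 were above every wild type mouse and KO replicate 2 was within their range. Its log2 fold change was 0.12 (SE 0.15).

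*Rbbp5*, on chr1:132477365-132505659, was at 44.5, 53.5 and 55.5 CPM in the wild type and at 69.2, 49.9, 60.4 and 43.6 CPM in the knockout mice, which spread to both sides of the wild type. The log2 fold change was 0.13 (SE 0.18), and it was 0.010 without KO replicate 1 and 0.23 without KO replicate 4. *Dpy30*, on chr17:74299474-74323944, encodes the small subunit that binds ASH2L. It was at 75.7, 68.0 and 73.9 CPM in the wild type and at 65.9, 108, 68.0 and 60.3 CPM in the knockout mice. KO replicate 2 was far above the other 6 mice, which lay between 60.3 and 75.7 CPM. Its log2 fold change was 0.060 with all mice and -0.16 without KO replicate 2, neither past the threshold. The core genes summed to 381 to 421 CPM in wild type and 385 to 461 CPM in knockout mice.

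*Hcfc1*, on chrX:73942792-73966357, encodes HCF-1, a cell cycle cofactor that joins the MLL and SET1 complexes. Its level was 110.6, 83.4 and 129 CPM in the wild type and 139, 109.9, 108 and 132 CPM in the knockout mice. WT replicate 2 was the lowest of the 7 mice, and KO replicates 1 and 4 were the highest. The log2 fold change was 0.18 (SE 0.16, 95% interval -0.16 to 0.52), and it was 0.030 without WT replicate 2 and 0.33 without WT replicate 3, the latter with an unadjusted p of 0.0840 by edgeR's quasi-likelihood test, the smallest for any member under the alternatives tried.

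*Kdm6a*, on chrX:18162575-18279936, encodes UTX, an H3K27 demethylase of the *Kmt2c* and *Kmt2d* complexes, and is a gene that escapes X inactivation. Its level was 39.5, 46.5 and 40.1 CPM in the wild type and 39.8, 43.6, 31.4 and 53.1 CPM in the knockout mice. KO replicate 3 was the lowest of the 7 mice and KO replicate 4 the highest. The log2 fold change was -0.0039 (SE 0.19, 95% interval -0.41 to 0.40) with all mice and 0.11 without KO replicate 3. *Uty*, the Y-linked paralog of *Kdm6a*, had 198 reads in KO replicate 3, or 37.0 CPM, and at most 1 read in any other mouse. The sum of both genes was 68.4 CPM in KO replicate 3 and 39.5 to 53.1 CPM in the other mice. The part of sex in the level of *Kdm6a* was not tested, since 1 mouse alone showed these reads.

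**Figure D3:**
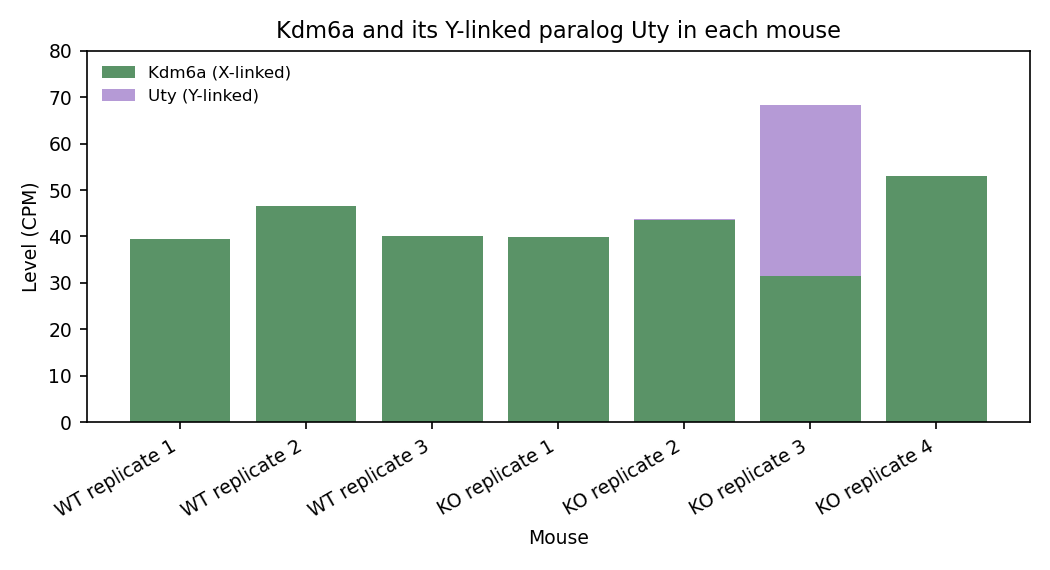
CPM of *Kdm6a* (green) and of its Y-linked paralog *Uty* (violet, stacked on top) in each of the 7 mice. KO replicate 3 has the lowest *Kdm6a*, 31.4 CPM, and *Uty* at 37.0 CPM, while the other mice show *Kdm6a* at 39.5 to 53.1 CPM.

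Reads of the members could be told from those of other genes in nearly all positions. Within the last 500 bases of their coding transcripts in GENCODE M21, 8 of the 10 genes shared no 75-base stretch, the length of a read, with the transcripts of another gene on either strand. *Kdm6a* and *Uty* shared none. *Ash2l* shared 1.96% and *Rbbp5* 0.921% of such stretches. Of the members, *Kmt2a* had exons that overlap another annotated gene, an antisense transcript outside its last exon, and which strand was counted is not stated.

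The spread between mice is set beside counting error as a description. The coefficient of variation (CV) of the CPM within a genotype was above that expected from the number of reads alone in 19 of 20 cases, 10 genes in both genotypes. The exception was *Dpy30* in wild type mice, at 5.51% against 5.89%, and some of the 19 were close to counting error, such as *Men1* in knockout mice at 6.06% against 5.81%. *Kmt2a* varied by 4.66% in wild type, next to a counting error of 4.37%, and by 21.3% in knockout mice, where the counting error was 4.03%. For *Men1* the order was the opposite, with 20.1% in wild type and 6.06% in knockout mice. The widest spread was that of *Dpy30* in knockout mice, at 29.1%. With 3 and 4 mice these differences in spread were not tested. The members varied less than genes in general, with a median CV of 10.3% in wild type and 12.03% in knockout mice, against 18.3% and 19.2% over all genes tested, which include genes of lower counts.

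**Figure D4:**
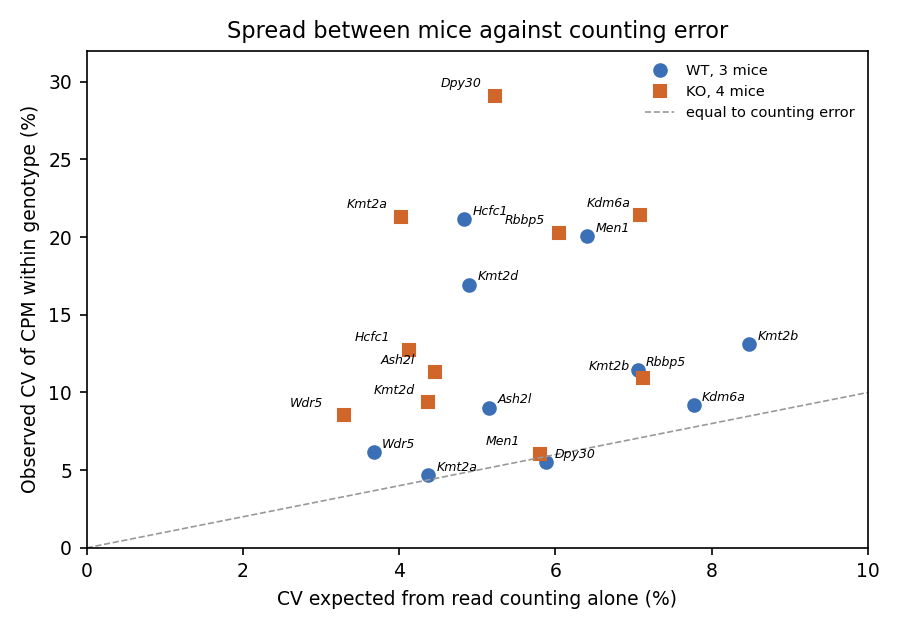
Observed CV of the CPM within each genotype (vertical axis, %) against the CV expected from read counting alone (horizontal axis, %), with wild type as blue circles, knockout as orange squares and equality as a dashed line. *Dpy30* in knockout mice is highest at 29.1%, and *Kmt2a* in wild type lies next to the line at 4.66%.

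Ratios of reads within a library do not depend on the scaling of the libraries. There were 0.499, 0.352 and 0.539 reads of *Men1* for each read of *Kmt2a* in the wild type mice and 0.567, 0.557, 0.383 and 0.477 in the knockout mice. The mean log2 ratio was -1.13 ± 0.33 for the wild type (SD, n = 3) and -1.03 ± 0.26 for the knockout (SD, n = 4), and the difference did not pass (exact permutation test, two-sided, p = 0.571). *Psip1*, which encodes LEDGF/p75, had a log2 ratio to *Kmt2a* of -0.55 ± 0.060 for the wild type (SD, n = 3) and -0.41 ± 0.34 for the knockout (SD, n = 4), with p = 0.514 in the same exact permutation test. The wild type mice lay within 0.658 to 0.715 reads of *Psip1* per read of *Kmt2a*, and the knockout mice between 0.573 and 0.978. For the core genes over the 6 methyltransferases of the family the log2 ratio was -0.71 ± 0.12 for the wild type (SD, n = 3) and -0.66 ± 0.11 for the knockout (SD, n = 4), with p = 0.571 in the exact permutation test. Adjusted over these 3 ratios each p was 0.571 by the same exact permutation test, whose smallest possible value here is 0.0571. Within the summed reads of the 10 genes, *Wdr5* took 20.1% to 22.8% in wild type and 19.6% to 22.0% in knockout mice, and *Kmt2a* took 14.2% to 15.9% and 11.7% to 17.4%. The share of no member separated the genotypes.

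The list of the remaining subunits of the H3K4 methyltransferase family gave 0 calls as well. It also took in *Uty* and *Kdm6b*, genes related to *Kdm6a*, so its counts are not of subunits alone. Of its 14 genes 13 were tested, with 0 past an adjusted p of 0.25 and 0 at an unadjusted p under 0.05 by edgeR. Of these, 4 were above and 9 below 0, with a median log2 fold change of -0.054. That balance rested on single mice, with 7 above and 6 below 0 and a median of 0.0055 without WT replicate 2, and medians from -0.13 (without KO replicate 3) to -0.0040 (without KO replicate 2) without any other mouse. *Setd1b*, the methyltransferase with the highest level, stood at 195 ± 34.8 (SD, n = 3) and 209.7 ± 42.2 CPM (SD, n = 4). *Kmt2c*, the partner paralog of *Kmt2d*, stood at 124 ± 8.98 (SD, n = 3) and 119 ± 14.8 CPM (SD, n = 4). *Setd1a*, a catalytic subunit of the SET1 complexes, was the gene of this group whose genotypes did not overlap. It stood at 75.2 to 78.3 CPM in wild type and 57.6 to 73.5 CPM in knockout mice, a log2 fold change of -0.18 (SE 0.15, unadjusted p = 0.231 by edgeR's quasi-likelihood test). That 1 gene of 13 is set beside 5.16% of all genes. *Kdm6b*, which encodes the demethylase JMJD3, had a log2 fold change of 0.21, with a 95% interval from -0.19 to 0.61. It was 0.37 without WT replicate 1 and 0.11 without WT replicate 3. *Pagr1a*, a subunit of the *Kmt2c* and *Kmt2d* complexes, ranged from 71.2 to 148 CPM in wild type and from 78.7 to 168 CPM in knockout mice.

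Among 7 partners and regulators of MLL, *Hdgfl2* itself was the gene past the threshold, at -5.09 on the log2 scale (SE 0.34, adjusted p = 1.38e-07, edgeR). *Psip1* had a log2 fold change of 0.059, with a 95% interval from -0.26 to 0.37. With 1 mouse left out it ran from 2.5e-05 (without WT replicate 1) to 0.15 (without KO replicate 1). *Myb*, whose product binds the MLL complex and which had the highest level of the group, stood at 679 ± 56.4 (SD, n = 3) and 688 ± 70.9 CPM (SD, n = 4). *Jund*, a menin-binding AP-1 factor, was at 0.44 on that scale (SE 0.22, unadjusted p = 0.0645, adjusted p = 0.999 by the same edgeR test). Its value was 0.76 without WT replicate 1, with an unadjusted p of 0.0022 and an adjusted p of 0.854 by edgeR, 0.22 without WT replicate 3 and 0.29 without KO replicate 4. *Ogt*, whose product cleaves HCF-1, had a log2 fold change of -0.032.

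Of 15 target genes of MLL and menin 14 were tested, and 0 were past 0.25 by edgeR, with 6 above and 8 below 0. Their median log2 fold change was -0.088, and with 1 mouse left out it ran from -0.13 (without WT replicate 2) to -0.014 (without WT replicate 1). *Cdk6*, the cell cycle kinase with the highest level among them, stood at 1416 ± 118 (SD, n = 3) and 1313 ± 108 CPM (SD, n = 4). *Mef2c*, a transcription factor of lymphoid and leukemic progenitors, had a log2 fold change of 0.10, and *Flt3*, a receptor of early progenitors, of -0.21. Both moved with single mice. *Mef2c* ran from -0.021 (without KO replicate 4) to 0.17 (without KO replicate 2). *Flt3* ran from -0.44 (without KO replicate 3) to -0.057 (without KO replicate 2). *Hoxa5*, named after its value was seen, was the gene of this list with an unadjusted p under 0.05. It stood at 24.6, 25.8 and 28.4 CPM in the wild type and at 18.3, 19.1, 22.2 and 15.4 CPM in the knockout mice, without overlap (log2 fold change -0.48, adjusted p = 0.999 by edgeR's quasi-likelihood test). With 1 mouse left out its value was -0.57 to -0.40, and its unadjusted p in the edgeR test was 0.0247 without KO replicate 3 and 0.0572 to 0.117 without any of the other 6. Against the 3.63% of all genes at an unadjusted p under 0.05, 1 gene of 14 is no result about the list.

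Among the enzymes that act against the MLL complexes, 0 of 6 H3K4 demethylase genes were past 0.25 and 0 at an unadjusted p under 0.05 by edgeR, and their log2 fold changes ran from -0.23 to 0.11. *Kdm5a*, the one with the highest level, had -0.11, *Kdm5c* 0.0062 and *Kdm1a*, which encodes LSD1, -0.16. With 1 mouse left out the ranges were -0.23 to 0.052 for *Kdm5a*, -0.10 to 0.10 for *Kdm5c* and -0.25 to 0.0054 for *Kdm1a*. *Kdm5a* and *Kdm1a* turned above 0 without WT replicate 2. The same counts were 0 of 10 and 0 for the genes of Polycomb repressive complex 2, which places the H3K27 methylation that UTX removes, with 5 above and 5 below 0. *Ezh2*, its catalytic subunit, had a log2 fold change of 0.19, *Rbbp4* of 0.039 and *Rbbp7* of -0.086. Leaving out 1 mouse gave 0.097 to 0.31 for *Ezh2*, -0.066 to 0.21 for *Rbbp4* and -0.12 to -0.061 for *Rbbp7*. The balance was 3 above and 7 below 0 without WT replicate 1 or KO replicate 1, and 4 or 5 above without any other mouse.

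The level of other cells' markers is set beside these results. The marker lists were chosen with earlier results of these data known, and markers of 1 cell type can move together. The counts for each list are therefore a description and no test of the list against all genes. All 12 neutrophil markers had a log2 fold change above 0, from 0.30 to 0.94, with 0 past 0.25 and 0 at an unadjusted p under 0.05 by edgeR. Their sum ranged from 8037 to 11185 CPM in wild type and from 9118 to 25345 CPM in knockout mice, and the leading genes *S100a8*, *S100a9* and *Ngp* were at 0.69, 0.78 and 0.78. These values leaned on KO replicate 3, without which 9 of 12 were above 0, *Ltf*, *Cd177* and *Cxcr2*, named after their values were seen, were below it, and the 3 leading genes were at 0.53, 0.39 and 0.24. The median of the 12 was 0.72 with that mouse and 0.23 without it. It was 0.94 without KO replicate 2 and 0.87 without KO replicate 4, where 5 and 4 of the 12 were at an unadjusted p under 0.05, and 0 past 0.25, by edgeR. The 12 macrophage markers summed to 422 to 472 CPM in wild type and 312 to 357 CPM in knockout mice, without overlap, with 9 of 10 genes tested below 0, 6 of them at an unadjusted p under 0.05 and 0 past 0.25 by edgeR. Over all genes tested, 3.63% were at an unadjusted p under 0.05, and 49.8% had a log2 fold change above 0. The leading genes *Vcam1*, *Slc40a1* and *C1qa* were at -0.34, -0.27 and -0.72. With 1 mouse left out, 3 (without WT replicate 3) to 7 (without KO replicate 3) of the macrophage genes were at an unadjusted p under 0.05. The 10 eosinophil, basophil and mast cell markers summed to 4568 to 4967 CPM in wild type and 3167 to 4399 CPM in knockout mice, also without overlap, with 8 of 9 genes tested below 0, 4 of them at an unadjusted p under 0.05 and 0 past 0.25 by edgeR. The leading genes *Prss34*, *Prg2* and *Mcpt8* were at -0.35, -0.38 and -0.30. Erythroid markers, led by *Tfrc*, *Car2* and *Slc4a1*, summed to 352 to 664 CPM in wild type and 351 to 575 CPM in knockout mice, with 4 of 12, the hemoglobin genes, listed at 0 in every mouse. B cell markers, led by *Cd79b*, *Blnk* and *Pax5*, summed to 129 to 287 and 146 to 429 CPM, and T and NK cell markers, led by *Nkg7*, *Il2rb* and *Cd3d*, to 743 to 783 and 564 to 789.97 CPM. Of the 10 T and NK cell genes 2 were at an unadjusted p under 0.05 by edgeR, *Il2rb* at -0.46 and *Cd8a*, named after its value was seen, at 0.59, and 0 were past 0.25. Without WT replicate 1 the count at an unadjusted p under 0.05 was 0, without KO replicate 1 it was 5, and without KO replicate 2 or 4 it was 1. By DESeq2 and by limma-voom the count past 0.25 was also 0 in each list of related genes and of markers, with the exceptions of *Hdgfl2* by both and of the macrophage complement gene *C1qc* by DESeq2. The part of these cells in the levels of the complex genes was not tested. The summed level of the 10 complex genes was 856 to 951 CPM in wild type and 885 to 961 CPM in knockout mice.

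**Figure D5:**
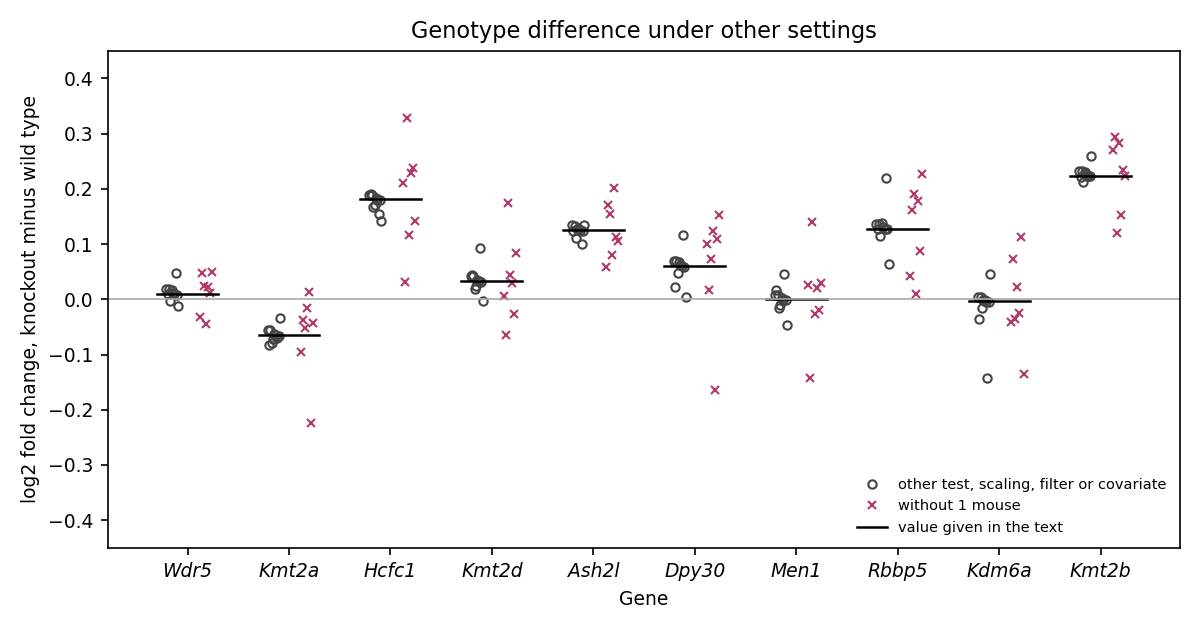
Log2 fold change of each complex gene (vertical axis) with all mice and the reported fit (black bars), with another test, scaling, filter or covariate (open circles), and with 1 mouse left out (crosses). All values lie between -0.22 and 0.33, and the crosses spread more widely than the circles for most genes.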

How the data were processed

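RNA of lin- bone marrow cells was sequenced as 75 bp single reads from QuantSeq 3′ libraries. Per the study's methods the authors aligned reads to GRCm38 and quantified genes with STAR on an Ensembl annotation; FastQC, STAR and DESeq2 are named in the submitters' processing notes. The deposited values are raw counts of reads per gene symbol. The 5 tally rows were left out of all totals; reads on no gene were 27.0% to 31.6% of a library.

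Genes were filtered with filterByExpr, scaled with TMM factors and tested with edgeR 4.0.16 (R 4.3.3), robust quasi-likelihood test, Benjamini-Hochberg adjustment over 11265 genes. CPM use the totals of the filtered genes and the TMM factors. The standard error is the log2 fold change divided by the square root of F, and intervals use the t distribution. DESeq2 1.42.0 and limma 3.58.1 (voom) were alternatives. Ratios, with 0.5 reads added to each side, were tested by exact permutation (scipy 1.17.1). The model was tested on simulated data. Replicates were compared in pairs by chi-square, and no 2 of them came within sampling noise. Counting intervals and floors cover counting error only. The labels number the libraries as biological replicates.

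The members and gene lists were chosen with earlier results of these data known. The genes named were the 10 members, *Hdgfl2*, *Psip1*, *Kmt2c*, *Setd1a*, *Setd1b*, *Kdm6b*, *Uty*, for each list the 3 genes with the highest mean CPM, and any gene past 0.25. Alternatives were other tests, scaling factors, filters, a replicate block, the omission of each mouse, and *Rn45s* left out or its share as a covariate. Gene coordinates are from GENCODE M21 and promoters from RefSeq, both on GRCm38.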

Additional observations from a re-analysis of the deposited data

Results flagged for a closer look

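The knockout mice were searched for a value far from the other 3, by the ratio of the gap to the range, in 53 results. Chance flags about 1 in 20, or 2.65, and 4 were found. *Dpy30* was at 108 CPM in KO replicate 2, with the next knockout mouse at 68.0 CPM. *Uty* was at 37.0 CPM in KO replicate 3 and at most 0.208 CPM in the others. *Pagr1a* was at 168 CPM in KO replicate 3, with the other knockout mice at 78.7 to 80.6 CPM, while WT replicate 2 had 148 CPM. *Nkg7*, a granule gene of cytotoxic lymphocytes, was at 338 CPM in KO replicate 2, with the others at 274 to 285 CPM. None of these was followed up with a test.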

How the results depend on the processing

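No member was called under any of the 17 alternatives, and the smallest adjusted p of a member in them was 0.949 (unadjusted 0.0840). Of 170 values 147 kept their sign and 23 did not. With all mice the sign turned for *Kdm6a* with DESeq2 (0.0041), RLE factors (0.0043) and the *Rn45s* covariate (0.045), for *Men1* with upper quartile factors (-0.015), library totals only (-0.0097), at least 10 reads in every mouse (-0.00052), *Rn45s* left out (-0.0016) and the *Rn45s* covariate (-0.047), for *Wdr5* with upper quartile factors (-0.0033) and the covariate (-0.012), and for *Kmt2d* with the covariate (-0.0032). Leaving out 1 mouse gave ranges of -0.045 to 0.049 for *Wdr5*, -0.064 to 0.17 for *Kmt2d*, -0.14 to 0.14 for *Men1*, -0.13 to 0.11 for *Kdm6a*, -0.22 to 0.013 for *Kmt2a*, -0.16 to 0.15 for *Dpy30*, 0.010 to 0.23 for *Rbbp5*, 0.058 to 0.20 for *Ash2l*, 0.12 to 0.29 for *Kmt2b* and 0.030 to 0.33 for *Hcfc1*. For the differences in log2 ratio the ranges were -0.081 to 0.23 for *Men1* to *Kmt2a*, which was below 0 without WT replicate 2, 0.015 (without KO replicate 2) to 0.27 (without KO replicate 3) for *Psip1* to *Kmt2a*, and 0.0073 (without WT replicate 3) to 0.12 (without WT replicate 2) for the core genes to the methyltransferases. Over all genes the count past 0.25 was 2, and it was 21 with DESeq2, 41 without a filter on low counts, 1 with at least 10 reads in every mouse, 8 with the *Rn45s* covariate and 2 to 7 when 1 mouse was left out. The cause was not tested. The replicate numbers do not pair the mice: the correlations of the deviations of same-numbered mice were -0.025, -0.22 and -0.16. A replicate block left 1 gene past 0.25 and called 0 members.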
